A study of Rattus norvegicus with 6 samples.

Results

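The genes described here were 40 genes of cholesterol and fatty acid synthesis, sterol control, sterol transport and lipid storage, taken by symbol from a list. All 40 were among the 18420 genes of the deposited RNA-seq table, and 39 held enough counts to be tested, the exception being Abcg1. Primary chondrocytes from knee and hip cartilage of male wild-type (WT) Sprague-Dawley rats were used at the third passage. The TNF-α group (n = 3 libraries) received 10 ng/mL TNF-α, an inflammatory cytokine, for 6 h. The TNF-α+NFL group (n = 3 libraries) received the same TNF-α and then Nanofat lysate (NFL) for 24 h. NFL is the cell-free fluid left after cells released from rat abdominal fat have been broken by freezing and thawing. The libraries are labelled with 6 h and 30 h of treatment, so that NFL and the later harvest cannot be told apart, and all 6 libraries had TNF-α. The NC group was not analysed here, and no library had TNF-α and a vehicle for the longer time.

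Totals ran from 19344893 to 19725135 estimated counts a library, and 13250 genes passed the filter on low counts. The study calls the libraries of a group independent biological replicates, but the labels do not tie them to separate animals or cultures, and p-values measure the spread between libraries, which may be technical. Correlations of log2 levels over the tested genes were 0.991 to 0.993 among the TNF-α libraries, 0.9945 to 0.995 among the TNF-α+NFL libraries, and 0.992 to 0.994 between the groups. Differences are given as log2 fold changes, so that a value below 0 means less RNA with NFL. Higher and lower follow those labels alone. In the gene table that supplements the paper, the columns headed T / N and M / N differ in the opposite direction almost throughout if T is read as the lysate group, and the meaning of T and M is not given there.

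Cells make cholesterol from acetyl-CoA through the mevalonate and sterol steps. When sterol in the endoplasmic reticulum is low, SCAP carries the SREBP factors to the Golgi, where they are cut and freed to switch on the genes of sterol and fatty acid synthesis, and when sterol is ample the INSIG proteins hold SCAP back. A sterol load is known to lower these genes and, through oxysterols and the LXR receptors, to raise the exporters Abca1 and Abcg1. A fatty acid load is known to act through the PPAR receptors on genes such as Angptl4, Cpt1a and Plin2. The comparison asked whether the fat lysate left either kind of response in the chondrocytes.

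The lipid genes differed little between the groups. None of the 39 tested genes was higher and none was lower at an adjusted p under 0.05 in edgeR's quasi-likelihood test, where 0.611% of all tested genes passed (0.408% higher and 0.204% lower). DESeq2 and limma-voom also called 0 of the 39, beside 0.943% and 0.264% of all tested genes. At an unadjusted p under 0.05, 6 of the 39 were lower and 0 were higher in edgeR, beside 5.45% and 5.66% of all tested genes, which is 11.1% in either direction. In DESeq2 4 of the 39 reached that level, beside 5.93% of all tested genes, and in limma-voom 6, beside 11%. The 6 were Angptl4, Plin3, Elovl6, Mvk, Fdps and Srebf1, and the smallest adjusted p was 0.21, for Angptl4. The 3 libraries of each group did not overlap for 5 genes, all of them lower (Mvk, Ebp, Elovl6, Plin3 and Angptl4), where 8.17% of tested genes were lower and 8.66% were higher without overlap.

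The precision of these libraries bounds the differences. The 95% interval of the fold change lay within a 2-fold change either way for all 39 genes, against 94.7% of tested genes. It lay within a 1.25-fold change either way for 34 of the 39, against 66.9% of tested genes. The 5 with wider intervals were Pmvk, Abca1, Elovl6, Cd36 and Pparg, and the widest, of the fatty acid receptor Cd36, ran from -0.71 to 0.63 on 9.65 to 15.0 estimated counts a library. The fitted differences ran from -0.35 for Elovl6 to 0.084 for Idi1. Of the 39, 26 were below 0, which is 66.7% against 51.8% of all tested genes, and the median was -0.027 against -0.0035. RNA was taken from whole cultures, so fewer cells of a type and less RNA per cell cannot be told apart.

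**Figure D1:**
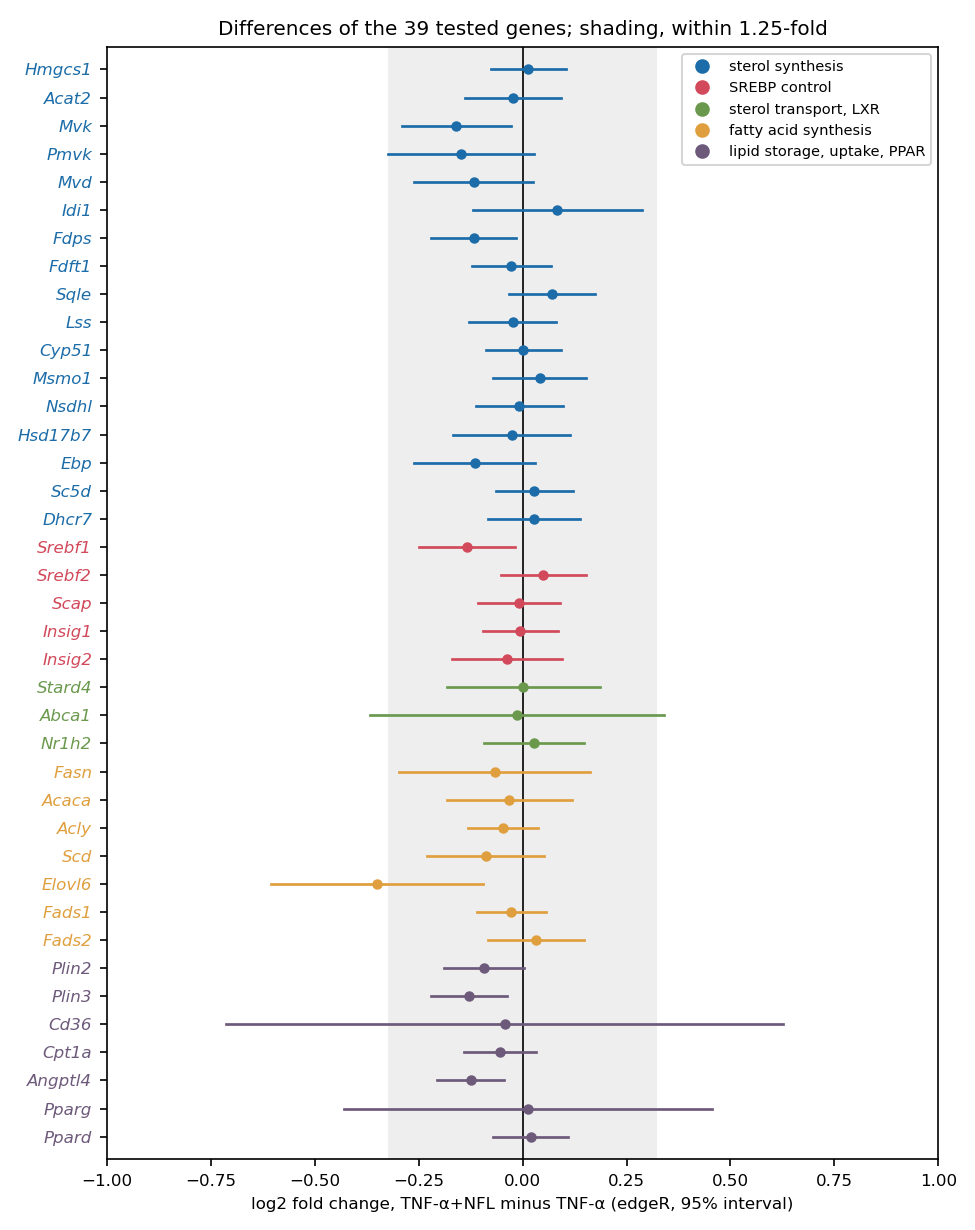
Log2 fold change of each of the 39 tested lipid genes (x axis, TNF-α+NFL against TNF-α, n = 3 libraries each), by role, with points for edgeR's estimate and bars for the 95% interval (shaded, within a 1.25-fold change). Intervals run across 0 for most genes, and the largest difference is -0.35, of Elovl6.

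Levels are compared between genes as the authors' TPM, which is scaled to transcript length, and each is a mean ± SD of 3 TNF-α libraries. Angptl4, a secreted inhibitor of lipoprotein lipase, had the highest level with 456 ± 18.8 TPM, and Fdps, which makes farnesyl pyrophosphate, followed with 411 ± 18.7 TPM. The sterol oxidases Msmo1 (301 ± 16.8 TPM) and Cyp51 (161 ± 5.09 TPM) came next. Fdps, Msmo1 and Cyp51 were thus among the most abundant of the set, while other sterol synthesis genes reached down to Hsd17b7 with 14.3 ± 0.794 TPM. Of the 40 genes, 20 were over 50 TPM. At the other end stood the fat cell regulator Pparg with 1.62 ± 0.115 TPM, Cd36 with 0.48 ± 0.121 TPM and the sterol exporter Abcg1 with 0.19 ± 0.114 TPM. In this order of levels, neighbouring genes were apart, with no overlap among the TNF-α libraries, in 17 of 39 pairs and overlapped in 22, including Angptl4 with Fdps.

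**Figure D2:**
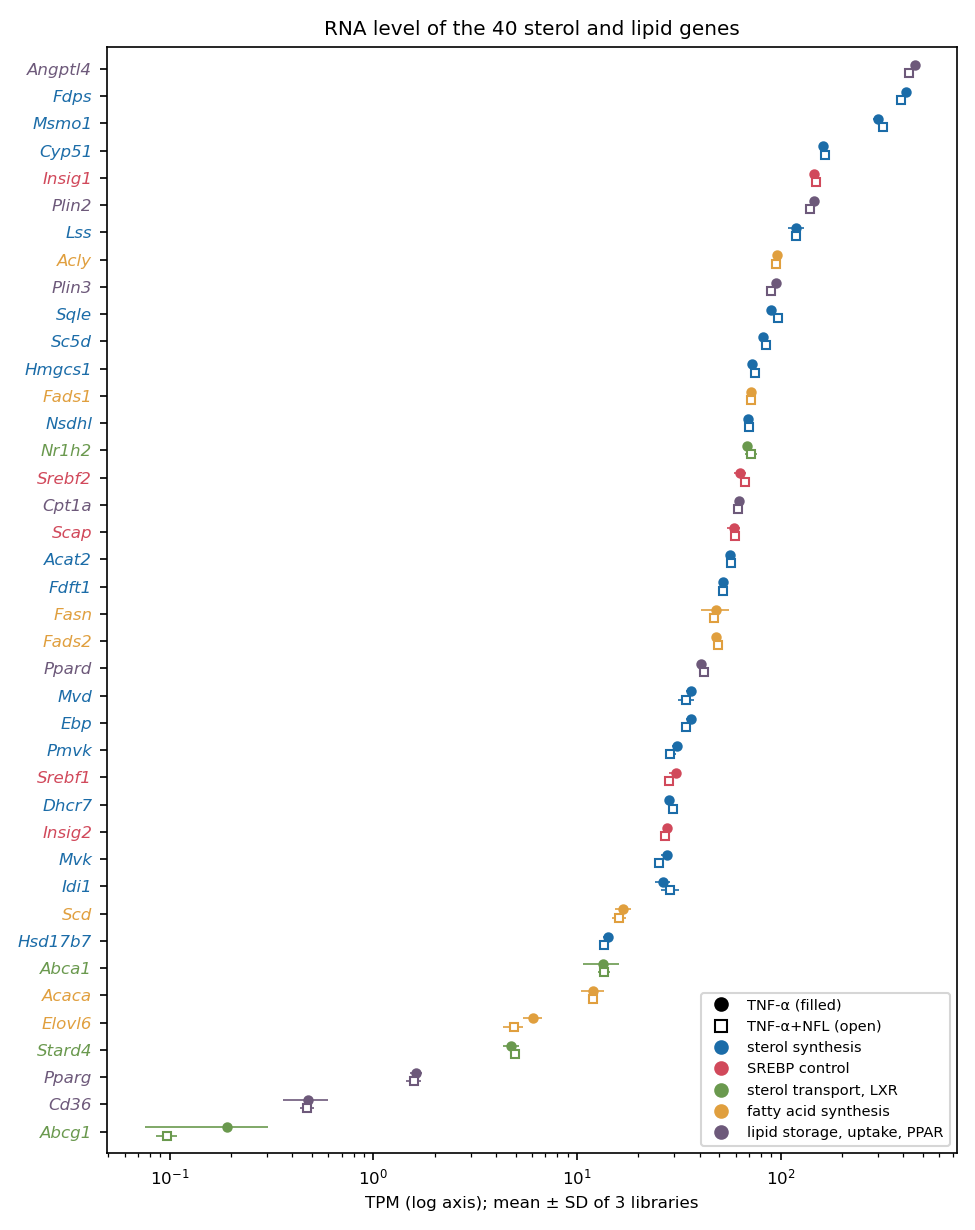
Level of each of the 40 lipid genes in TPM (log axis) as mean ± SD of 3 libraries, with TNF-α filled and TNF-α+NFL open. Levels range from 456 TPM for Angptl4 to 0.19 TPM for Abcg1 in the TNF-α group, and the means of both groups lie close together for most genes.

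Sterol synthesis was covered by 17 genes, all tested, of which 10 were below 0 and 7 above with a median of -0.023. None passed the adjusted threshold. Hmgcs1 makes HMG-CoA, the entry to the mevalonate pathway. Its level was 119, 120.05 and 128 CPM (counts scaled to library size) in TNF-α replicates 1, 2 and 3 and 126, 122 and 123 CPM in those of TNF-α+NFL. The TNF-α+NFL values lay inside the TNF-α range, and the log2 difference was 0.014 ± 0.042 (SE), with a 95% interval from -0.076 to 0.104. Sqle, the oxygen-requiring squalene epoxidase, gave 91.7, 93.6 and 100.4 CPM against 104, 99.8 and 96.1 CPM. The groups overlapped, and the difference was 0.070 ± 0.048 (edgeR adjusted p = 0.66).

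Mvk and Fdps were the sterol genes at an unadjusted p under 0.05. Mvk, which phosphorylates mevalonate, was at 24.1, 22.4 and 22.3 CPM in TNF-α and at 20.5, 20.7 and 20.4 CPM in TNF-α+NFL. All 3 lysate libraries were below all 3 others, a difference of -10.5% in the fit (log2 difference -0.16 ± 0.061, edgeR adjusted p = 0.33, exact permutation p = 0.10, the smallest that 3 against 3 libraries can give). Fdps was at 247, 267 and 282 CPM against 251, 240.0 and 243 CPM. Here the groups overlapped through TNF-α replicate 1, and the difference was -0.12 ± 0.048 (edgeR adjusted p = 0.36). Ebp, the sterol isomerase, was at 18.9, 20.4 and 18.6 CPM against 18.5, 17.6 and 17.5 CPM. Its groups did not overlap but lay close, at -0.115 ± 0.067 (edgeR adjusted p = 0.58).

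The remaining 12 sterol genes overlapped between the groups. Among the genes of the mevalonate steps, the thiolase Acat2 differed by -0.023, the kinase Pmvk by -0.15, the decarboxylase Mvd by -0.12 and the isomerase Idi1 by 0.084. The squalene synthase Fdft1 differed by -0.027 and the lanosterol synthase Lss by -0.024. From lanosterol to cholesterol, the demethylase Cyp51 differed by 0.0019, the oxidase Msmo1 by 0.042, Nsdhl by -0.0087 and Hsd17b7 by -0.027. The desaturase Sc5d differed by 0.029 and the last reductase, Dhcr7, by 0.028. Their adjusted p ran no lower than that of Pmvk, 0.55 in edgeR's test. Cyp51 showed the closest match, at 240.5, 247 and 264 CPM in TNF-α and 251, 253 and 249 CPM in TNF-α+NFL, with an interval from -0.088 to 0.092.

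Promoters of sterol genes carry CCAAT boxes, which bind the factor NF-Y, a known partner of the SREBP factors. Promoter windows of RefSeq (GRCr8), from 250 bases before to 50 after the transcript start, were found for 31 of the 40 genes, as 34 windows. CCAAT on either strand (read as ATTGG on the other) was in 11 of 14 windows of the sterol synthesis genes (78.6%) and in 5 of 6 of the SREBP control genes (83.3%). It was in 2 of 4 windows of fatty acid synthesis genes, 3 of 8 of lipid storage genes, 0 of 2 of sterol transport genes, and 37.5% of all 33469 windows. The sterol response element spelled TCACNCCAC, N being any base, was in 0 of the 34 windows on either strand and in 1.12% of all windows, which says only that these exact letters were not there. The letters are a description of the DNA and no measure of binding. Shown 5′ to 3′ are the windows of the entry gene Hmgcs1 (chr2:53382054-53382353, plus strand) and of the sterol genes at an unadjusted p under 0.05, Mvk (chr12:47819454-47819753, minus strand) and Fdps (chr2:176804767-176805066, minus strand), with CCAAT or ATTGG in capitals. Hmgcs1 and Fdps each hold 2 and Mvk holds 5.
Hmgcs1: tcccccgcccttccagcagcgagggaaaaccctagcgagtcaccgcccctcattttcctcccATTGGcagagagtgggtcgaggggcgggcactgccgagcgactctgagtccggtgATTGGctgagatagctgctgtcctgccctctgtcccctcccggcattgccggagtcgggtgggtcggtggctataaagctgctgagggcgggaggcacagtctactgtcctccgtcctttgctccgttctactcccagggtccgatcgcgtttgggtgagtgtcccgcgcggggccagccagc
Mvk: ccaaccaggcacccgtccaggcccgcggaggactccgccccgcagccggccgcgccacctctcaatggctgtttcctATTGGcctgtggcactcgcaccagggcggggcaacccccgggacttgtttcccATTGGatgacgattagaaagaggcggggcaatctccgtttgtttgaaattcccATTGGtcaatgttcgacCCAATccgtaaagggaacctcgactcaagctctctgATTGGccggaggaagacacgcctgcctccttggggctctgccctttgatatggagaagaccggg
Fdps: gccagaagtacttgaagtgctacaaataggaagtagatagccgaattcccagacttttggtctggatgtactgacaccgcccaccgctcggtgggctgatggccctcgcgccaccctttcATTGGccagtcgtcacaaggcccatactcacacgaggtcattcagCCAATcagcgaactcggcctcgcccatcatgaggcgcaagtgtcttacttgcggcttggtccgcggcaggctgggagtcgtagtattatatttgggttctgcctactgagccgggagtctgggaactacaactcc

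The SREBP control genes, 5 in all, were measured with narrow intervals, all within a 1.25-fold change, and none passed the adjusted threshold. Srebf1, whose SREBP-1c product drives fatty acid genes, was at 61.5, 55.6 and 59.2 CPM in TNF-α and 51.0, 56.2 and 53.6 CPM in TNF-α+NFL. The second library of each group overlapped, and the difference was -0.13 ± 0.053 (edgeR adjusted p = 0.36). Srebf2, which encodes the main factor for sterol genes, was at 174, 160.4 and 159 CPM against 166, 180 and 166 CPM. Its difference was 0.050 ± 0.048 and the highest library of each group stood apart from the other two. Insig1, itself an SREBP target and among the most sterol-sensitive genes, was at 179, 175 and 191 CPM against 183, 178 and 182 CPM. Insig1 differed by -0.0056 ± 0.042, with an interval from -0.096 to 0.085. The SREBP escort Scap differed by -0.0086 and Insig2 by -0.036. Transcript levels do not show the cutting of the SREBP proteins, which was not measured.

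Of the sterol transport genes, 3 of 4 were tested and none passed. Abca1, which exports cholesterol and is a classic LXR target, was at 87.2, 66.1 and 64.3 CPM in TNF-α and 70.4, 67.7 and 77.4 CPM in TNF-α+NFL. TNF-α replicate 1 was the highest of the 6 libraries, and the difference was -0.013 ± 0.14 with an interval from -0.37 to 0.34. Without TNF-α replicate 1 the sign turned, to 0.14 (edgeR adjusted p = 0.13). Abcg1 was below the filter on low counts, with 11, 5 and 4 counts against 4, 3 and 4 counts. Fitted without the filter, Abcg1 differed by -0.85 ± 0.59, with an interval from -2.07 to 0.37 (edgeR adjusted p = 0.76). The LXR-β gene Nr1h2 differed by 0.027 and the sterol carrier Stard4 by 0.0018.

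Of the 7 fatty acid synthesis genes, all tested, 6 were below 0 and 1 above, with a median of -0.048, and none passed. Fasn, the fatty acid synthase, was at 264, 216 and 207 CPM in TNF-α and 209, 225 and 221 CPM in TNF-α+NFL. TNF-α replicate 1 was again the highest library, the others ran together, and the difference was -0.0675 ± 0.095 (edgeR adjusted p = 0.87). Without that library the sign of Fasn turned, to 0.047 (edgeR adjusted p = 0.52), and the median of the 7 genes was -0.014. Scd, a stearoyl-CoA desaturase, was at 44.2, 38.9 and 40.6 CPM against 37.2, 37.0 and 42.2 CPM, a difference of -0.089 ± 0.065. Scd is close in sequence to Scd2, so the split of reads between the pair is uncertain. Elovl6, which lengthens palmitate, was at 8.09, 8.37 and 6.99 CPM against 5.84, 5.58 and 6.96 CPM. All 3 lysate libraries were below the others, TNF-α+NFL replicate 3 only just, on 109 to 165 counts a library. The fit gave -21.6% (-0.35 ± 0.12, interval from -0.61 to -0.094, edgeR adjusted p = 0.26, exact permutation p = 0.10). The carboxylase Acaca differed by -0.032, the citrate lyase Acly by -0.048, and the desaturases Fads1 and Fads2 by -0.027 and 0.032.

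The lipid storage and PPAR genes, 7 in all and all tested, had 5 genes below 0, 2 above and a median of -0.054, and none passed. Angptl4, a PPAR target that also answers to low oxygen, was at 439, 431 and 421 CPM in TNF-α and 397, 384 and 403 CPM in TNF-α+NFL. The groups did not overlap, and Angptl4 differed by -8.27% in the fit (-0.125 ± 0.0375, interval from -0.21 to -0.044, edgeR adjusted p = 0.21, exact permutation p = 0.10). Plin3, a coat protein of small lipid droplets, was at 94.0, 99.5 and 98.1 CPM against 87.1, 89.8 and 89.7 CPM. It too was lower in every lysate library, with a difference of -8.53% (-0.13 ± 0.042, edgeR adjusted p = 0.25, exact permutation p = 0.10). Plin2, the droplet coat that is often read as a sign of lipid loading, was at 132, 139 and 137 CPM against 126, 123 and 134 CPM. Its groups overlapped through TNF-α+NFL replicate 3, and the difference was -0.092 ± 0.045 with an interval from -0.19 to 0.0038. Cpt1a, which admits fatty acids to mitochondria, differed by -0.054, Ppard by 0.019, Pparg by 0.013 and Cd36 by -0.043, the last 2 on at most 33 counts a library.

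**Figure D3:**
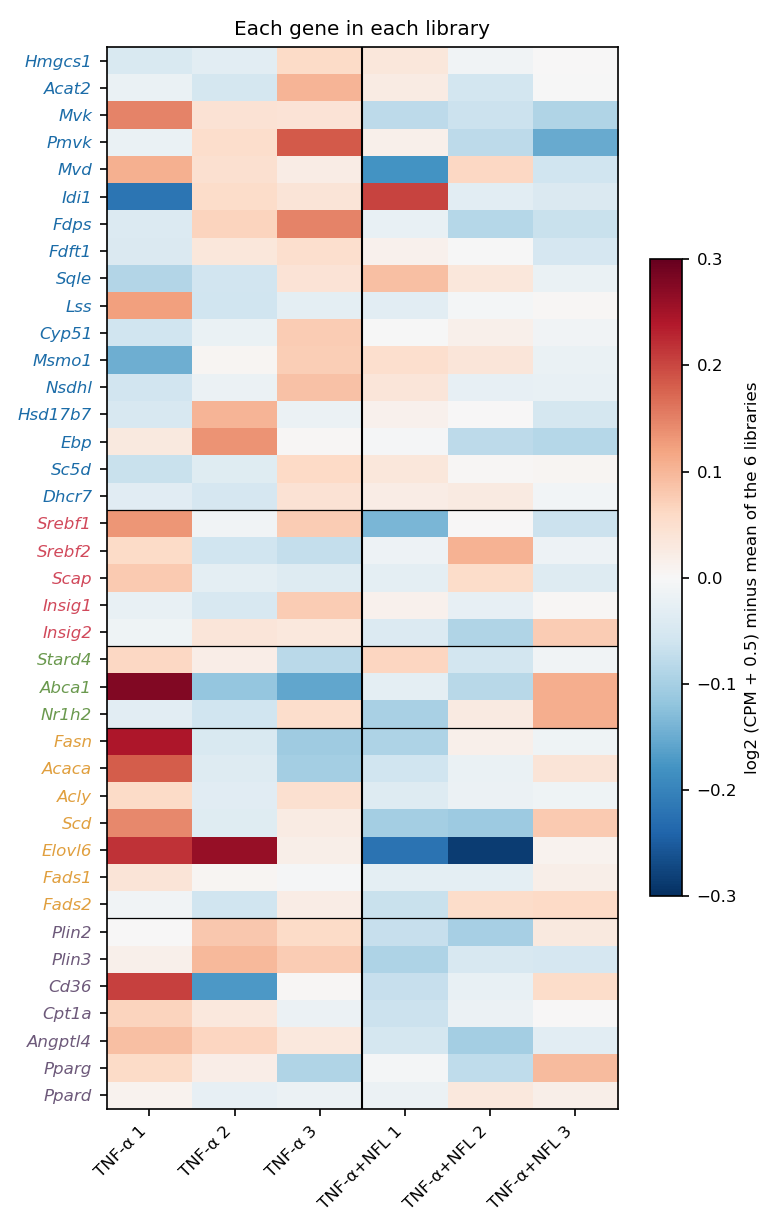
Log2 level of each tested lipid gene in each of the 6 libraries relative to the mean of all 6, with genes in rows by role. TNF-α replicate 1 stands out with high fatty acid synthesis genes and Abca1, while Angptl4 and Plin3 are lower in all 3 TNF-α+NFL libraries.

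The pathways hold further genes, of which 77 were listed and 71 tested (24 of sterol, 18 of fatty acid and 29 of lipid handling). None passed the adjusted threshold in edgeR, and 0 were called by DESeq2 or limma-voom. At an unadjusted p under 0.05, 6 were lower and 2 higher, or 11.3% of the 71, close to the 11.1% of all tested genes. Of the 71, 47 were below 0 (66.2%, against 51.8% of all tested genes) and the median was -0.015 against -0.0035. In each list, the 3 genes with the smallest unadjusted p are named. In the sterol list these were Cyp27a1, which makes an oxysterol (-0.48 ± 0.17, edgeR adjusted p = 0.28), Ggps1, which makes geranylgeranyl pyrophosphate (0.16 ± 0.070, adjusted p = 0.41), and the lipoprotein receptor Lrp8 (-0.13, adjusted p = 0.54). In the fatty acid list they were the acyltransferases Agpat2 (-0.24) and Dgat2 (-0.16) and the citrate carrier Slc25a1 (-0.090), with an edgeR adjusted p of 0.40 to 0.51.

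In the lipid handling list the 3 genes were Mgll, Hilpda and Plin4. Mgll, which splits monoacylglycerol, was at 9.95, 8.40 and 8.90 CPM in TNF-α and 10.5, 11.2 and 11.9 CPM in TNF-α+NFL. Its lysate libraries were all the higher ones, by 0.30 ± 0.093 (edgeR adjusted p = 0.22). Hilpda, a droplet protein that restrains the lipase ATGL, was at 18.5, 21.2 and 21.9 CPM against 17.8, 17.1 and 17.9 CPM. It was lower without overlap, by -0.22 ± 0.074 (edgeR adjusted p = 0.26), and the droplet coat Plin4 differed by -0.22 (adjusted p = 0.32).

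The calls depended on TNF-α replicate 1. Without that library, 930 genes passed in place of 81, which is 6.94% of those tested (3.43% higher and 3.51% lower). Of the 39 lipid genes, 3 then passed, all lower: Fdps at -0.17 ± 0.035 (edgeR adjusted p = 0.0048), Plin3 at -0.15 ± 0.040 (adjusted p = 0.023) and Angptl4 at -0.11 ± 0.031 (adjusted p = 0.039). At these sizes the interval of Fdps ran from -0.24 to -0.094, so a called gene still differed by little. Fdps was at -0.070 without TNF-α replicate 3 (edgeR adjusted p = 0.70). Of the further genes, Mgll was then higher (0.37, adjusted p = 0.030), and Fabp5 (-0.22, adjusted p = 0.0059) and Hilpda (-0.29, adjusted p = 0.017) were lower. None of the 39 or of the further genes passed when any of the other 5 libraries was left out. With each library left out in turn, 21 of the 39 genes kept the sign of their difference and 18 changed it at least once. Of the 21, 6 (Mvk, Srebf1, Elovl6, Plin2, Plin3 and Angptl4) also stayed within 1.5 times of their difference in all 6 of these fits.

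The TNF-α libraries also differed among themselves. TNF-α replicate 1 had the lowest value of the 3 for 11 of 17 sterol synthesis genes, against 37.8% of all tested genes. It had the highest for 5 of 7 fatty acid synthesis, 5 of 7 lipid storage, 3 of 5 SREBP control, 2 of 3 sterol transport and 3 of 17 sterol synthesis genes, against 37.9% of all tested genes. TNF-α replicate 3 had the highest value for 11 of 17 sterol synthesis genes, against 33.8%. The median log2 deviation over the fatty acid genes, each gene taken from its mean over the 6 libraries, was 0.145, -0.037 and 0.017 in TNF-α replicates 1, 2 and 3 and -0.068, -0.021 and 0.017 in TNF-α+NFL. The median over the sterol genes was -0.044, 0.0068 and 0.051 against 0.015, -0.0056 and -0.022. These medians, and those of the SREBP control genes, spread more widely among the TNF-α libraries than among the TNF-α+NFL libraries. The lipid storage medians did not, at 0.0573, 0.0315 and 0.00362 against -0.0635, -0.0488 and 0.0172. Nor did those of sterol transport, at 0.0615, -0.0587 and -0.082 against -0.0285, -0.054 and 0.108.

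Transcript length moved with these shifts. Over the 39 genes, the Pearson correlation of a gene's deviation with its log length was 0.50, -0.41 and -0.71 in TNF-α replicates 1, 2 and 3, and -0.084, 0.18 and 0.37 in those of TNF-α+NFL. Over 13240 tested genes these values were 0.17, -0.18 and -0.26, then 0.076, 0.18 and 0.053. By rank (Spearman) the TNF-α values were closer, 0.36, -0.40 and -0.54 for the lipid genes and 0.28, -0.29 and -0.44 for all. Lengths were those implied by the deposited counts and FPKM. The longest lipid transcripts were those of Abca1 (10.6 kb), Fasn (9.27 kb) and Acaca (6.96 kb). Pmvk (0.946 kb), Ebp (1.04 kb) and Fdps (1.26 kb) were short. With each library's trend with length removed, 0 of the 39 passed the adjusted threshold, beside 1.78% of 13240 genes, and the smallest adjusted p was 0.13 in edgeR. At an unadjusted p under 0.05 were 10 of the 39, beside 11.8% of those genes. The genes are points of the same libraries, and the part of length in the differences was not tested.

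**Figure D4:**
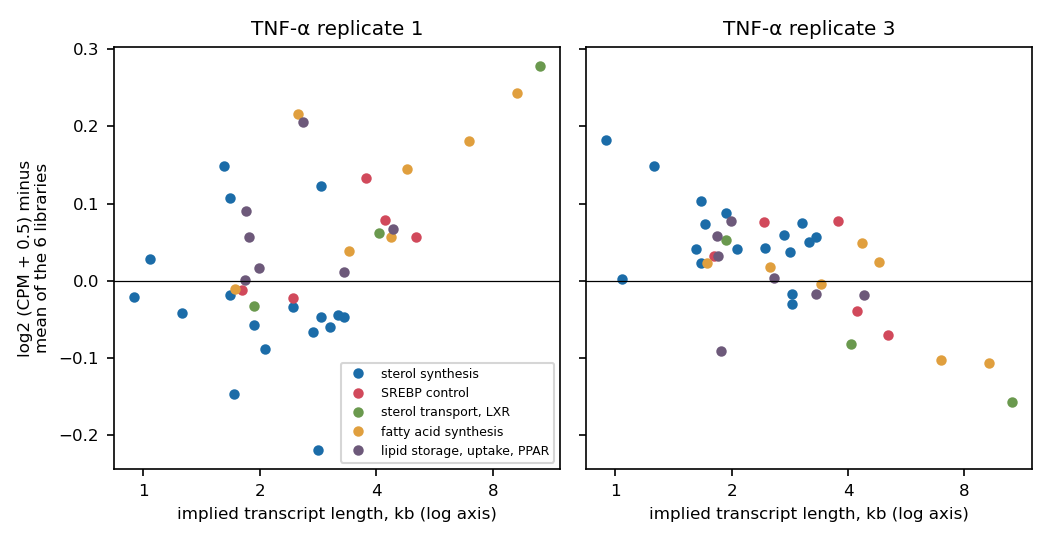
Deviation of each tested lipid gene from its mean over 6 libraries (y axis, log2) against implied transcript length (x axis, kb, log axis). The panels show TNF-α replicates 1 and 3. Long transcripts lie high in TNF-α replicate 1 (r = 0.50) and low in TNF-α replicate 3 (r = -0.71).

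RNA of fat cells and of other cells was followed with marker lists. The 13 chondrocyte markers summed to 3500 to 4250 CPM in TNF-α and 3800 to 4080 CPM in TNF-α+NFL, and nearly all of that was the lubricant gene Prg4 and the collagen gene Col11a1. Prg4 averaged 2168 ± 318 against 1973 ± 176 CPM, with overlap (-0.135). Col11a1 averaged 1621 ± 68.1 against 1886 ± 99.0 CPM, higher in every lysate library (0.22 ± 0.046, edgeR adjusted p = 0.052). Col2a1, the collagen that defines cartilage, had only 353 to 466 counts a library, and was at 19.9, 17.9 and 20.2 CPM against 21.1, 23.1 and 23.7 CPM (0.23 ± 0.071, edgeR adjusted p = 0.22). Sox9 had 165 to 204 counts, and Matn1 at most 1. Of 8 adipocyte markers, 3 were tested and none was called, and the list summed to 16.0 to 16.7 CPM in TNF-α and 16.9 to 18.3 CPM in TNF-α+NFL. Most of that was Fabp4 (154 to 187 counts a library) and Lipe (130 to 151 counts), and Cfd had 10 to 22 counts. Adipoq and Lep were near 0. Adipoq had 0 to 1 counts in TNF-α and 1 to 4 in TNF-α+NFL, and Lep had at most 2. Of the 9 macrophage markers, 6 were in the table and 2 were tested, without a call, and they summed to 77.8 to 82.2 against 69.7 to 71.7 CPM. Most of that was Cd14, at 53.5, 54.2 and 55.1 against 48.7, 49.7 and 45.8 CPM, lower in every lysate library (-0.17 ± 0.048, edgeR adjusted p = 0.16). TNF-α replicate 1 held 40 counts of Csf1r and 11 of Tyrobp, where the other libraries held 1 to 7 and 0. Endothelial markers summed to 12.1 to 14.4 against 10.4 to 11.9 CPM without a call, mostly from Egfl7, while Kdr was at 0 in all 6 libraries, Cldn5 had at most 1 count and Pecam1 at most 4. Adipose stromal markers summed to 577 to 692 against 589 to 628 CPM without a call, nearly all from Pdgfra, while Pi16 had 70 to 103 counts, Dpp4 at most 2 and Cd34 at most 1. Cd248 was at 0 in 4 libraries and at 140.5 counts in TNF-α replicate 3 and TNF-α+NFL replicate 1. The part of such RNA in the lipid gene values was not tested.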

How the data were processed

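The 40 genes, their role groups, the further pathway genes and the tests were chosen with earlier results of these data known. The deposited table gives an estimated count, not normalized, with FPKM and TPM values made by the authors by scaling to transcript length and library size. The submitters' processing notes name HISAT2 2.0.4, Bowtie2 2.2.5 and RSEM 1.2.12, without their roles. Reads were single-end from poly(A) RNA.

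Estimated counts (19344893 to 19725135 a library, 27.3% to 28.0% of genes fractional) were rounded and tested with edgeR 4.0.16 (R 4.3.3): filterByExpr, TMM, quasi-likelihood (robust, two-sided), Benjamini-Hochberg adjustment over 13250 genes. The biological coefficient of variation was 6.39%. CPM are TMM-scaled. Standard errors were the fold change over the root of F. The test was checked on counts simulated from the fitted dispersion. These held no library-wide shifts with transcript length, so the check does not cover such shifts. DESeq2 1.42.0, limma 3.58.1 on voom and log2(FPKM + 1) values, other filters, scalings and leave-outs were alternatives. A gene at 3 counts or fewer was at the floor. Identifiers matched RefSeq GRCr8 for 17068 of 18420 genes and 40 of 40 listed.

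All 40 genes are accounted for. Values per library are given for genes at an unadjusted p under 0.05, genes without overlap, and Hmgcs1, Sqle, Srebf1, Srebf2, Insig1, Abca1, Fasn, Scd, Plin2 and Angptl4. Of each further list the 3 smallest p are named.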

Additional observations from a re-analysis of the deposited data

How the results depend on the processing

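None of the 39 lipid genes passed under any alternative that kept all 6 libraries, and with single libraries left out 0 to 3 were lower and 0 higher. The further pathway genes had 0 to 3 calls. The count over all genes moved from 81 to 132 without a filter, 125 with DESeq2, 35 with limma-voom, 6 on log2(FPKM + 1), 236 with the length trend removed, 164 at an adjusted p under 0.10, and 5 (without TNF-α+NFL replicate 1) to 930 (without TNF-α replicate 1) with a library left out. With the replicate number as a block it was 34. Deviations of same-numbered libraries correlated by -0.011, -0.024 and 0.081. These values show no pairing by number but cannot exclude it, and the labels state none. The cause of these moves was not tested. Angptl4 and Plin3 were at an unadjusted p under 0.05 in every fit run.

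The median of the sterol synthesis genes ran from -0.038 to 0.027 and that of the lipid storage genes from -0.10 to -0.033 with a library left out (-0.0048 and -0.072 with the length trend removed). That of fatty acid synthesis ran from -0.087 to -0.014 (-0.075 with the length trend removed), that of sterol transport from -0.038 to 0.034 (-0.022), and that of SREBP control from -0.028 to 0.00075 (-0.0155). Small differences changed sign. On log2(FPKM + 1) Pparg was at -0.032. With the length trend removed, Acat2 was at 0.0018, Cyp51 at -0.0048, Nsdhl at 0.0097 and Stard4 at -0.022. With a library left out, the ranges were Hmgcs1 -0.00486 to 0.0489, Acat2 -0.0507 to 0.0271, Idi1 -0.000448 to 0.136, Lss -0.0561 to 0.0346, Cyp51 -0.0262 to 0.0431, Msmo1 -0.0173 to 0.0918, Nsdhl -0.0385 to 0.0368, Hsd17b7 -0.0562 to 0.024, Scap -0.0383 to 0.0305, Insig1 -0.0268 to 0.0348, Insig2 -0.0844 to 0.00075, Stard4 -0.0376 to 0.034, Abca1 -0.0905 to 0.14, Nr1h2 -0.021 to 0.0819, Fasn -0.133 to 0.0474, Acaca -0.0873 to 0.0573, Cd36 -0.176 to 0.138, Pparg -0.0486 to 0.0654. Of the 21 genes that kept their sign, 15 moved by over 1.5 times, such as Srebf2 (0.00998 to 0.0922), Scd (-0.151 to -0.035), Mvd (-0.181 to -0.0567) and Fdps (-0.166 to -0.0698). The depth cannot show changes of Abcg1, Cd36 or Pparg of modest size.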
